A study of Mus musculus with 10 samples.

Results

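Open chromatin at 3 genes, T (Brachyury), Tbx6 and Msgn1, was followed through the differentiation of mouse embryonic stem cells toward neuromesodermal progenitors. The members are the ATAC-seq regions whose nearest protein-coding gene, within 50 kb of its span, is 1 of these 3 genes. There were 19 such regions of 246799: 12 for T on chromosome 17, 1 for Tbx6 on chromosome 7 and 6 for Msgn1 on chromosome 12 (build mm10). ATAC-seq uses a transposase that cuts open DNA, so a region's count measures accessibility and not expression, and the nearest gene need not be the one a region serves.

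The cells were the wild-type ES-Bruce4 line (C57BL/6), and there were 5 groups of 2 libraries, sampled on day 2, on day 3, on day 6, on day 7 with Gdf11 and on day 7 without it. All were grown with bFgf at 10 ng/ml from the start. The protocol adds CHIR99021, an inhibitor of GSK3 that activates Wnt signalling, at 5 µM from day 2. Day 2 cells were sampled on the day it began, so day 3 and day 2 also differ in their time with CHIR99021. The day 7 cells with Gdf11, a TGF-beta family ligand of the embryonic tail bud, received the human protein at 50 ng/ml for the last 24 h. Day 2 libraries are labelled as epiblast stem cells and all later ones as neuromesodermal progenitors. No label tells if both libraries of a group were grown separately, and p-values therefore reflect a spread that may be technical.

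T encodes the founding T-box transcription factor, which is made in the primitive streak, the tail bud and the notochord, and is needed to form posterior mesoderm. Together with Sox2 it marks neuromesodermal progenitors, where Wnt and Fgf signals maintain it. Tbx6 encodes a second T-box factor, which directs progenitors into paraxial mesoderm and represses neural fate. In mouse embryos without Tbx6, cells at the place of posterior somites form neural tubes. Msgn1 encodes a basic helix-loop-helix factor of the presomitic mesoderm that acts with Tbx6 in the exit from the progenitor state.

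Library totals ran between 7150334 and 12335735 counts, so that 1 count was worth between 0.0799 and 0.147 CPM (library-size-scaled counts, with TMM factors). Region counts at these genes were low, often under 20 in a library, which limits the precision of single values. Of the 19 regions, 16 passed the filter on low counts (9 for T, 1 for Tbx6 and 6 for Msgn1), and the other 3, all near T and 100 bp wide, were not tested. Among the 16, 9 differed among the 5 groups (edgeR quasi-likelihood test, Benjamini-Hochberg adjusted p under 0.05), against 43.8% of all 173175 tested regions. Summed marker accessibility of neuromesodermal progenitors and caudal epiblast, a list that includes T, was 494 to 502 CPM on day 3 and 322 to 344 CPM on day 2. That of epiblast was 213 to 225 CPM on day 3 and 360 to 406 CPM on day 2. That of paraxial mesoderm, a list with Tbx6 and Msgn1, was 122 to 127 CPM on day 3 and 146 to 161 CPM on day 2. That of neural progenitors was 449 to 483 CPM on day 3 and 520 to 523 CPM on day 2. On day 7 without Gdf11, the sum of neuromesodermal progenitors and caudal epiblast was 469 to 544 CPM. Marker lists of other cell types (endoderm, lateral plate with heart and blood, feeder fibroblasts) each had all 6 of their genes in the table, with sums between 166 and 272 CPM over all groups, and no defining marker at 0.

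Regions just upstream of T and Msgn1, ending 46 bp and 75 bp before the gene spans, were open on day 3. Their bases in the promoter are shown because both regions were most accessible on day 3. The T region had a peak in 9 of the 10 libraries, with every group among them, and the Msgn1 region in the 2 day 3 libraries only. The T stretch is chr17:8434173-8434377 on the plus strand, and the Msgn1 stretch is chr12:11209023-11209198 on the minus strand, each read 5′ to 3′ toward its gene (RefSeq, GRCm38.p6). Capitals mark matches to the Tcf/Lef letters CTTTGA and the Cdx letters TTTATG, searched on both strands, so that TCAAAG and CATAAA are the same letters on the other strand.
T promoter: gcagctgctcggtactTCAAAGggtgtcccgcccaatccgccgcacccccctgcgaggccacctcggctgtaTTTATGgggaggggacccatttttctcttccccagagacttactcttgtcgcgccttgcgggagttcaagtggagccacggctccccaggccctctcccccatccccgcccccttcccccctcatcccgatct
Msgn1 promoter: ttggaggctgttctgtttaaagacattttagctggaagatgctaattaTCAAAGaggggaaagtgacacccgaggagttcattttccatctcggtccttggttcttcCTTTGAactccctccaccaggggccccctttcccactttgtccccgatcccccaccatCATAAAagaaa
In the 250 bases before its start, T had 1 Tcf/Lef match and 1 Cdx match, and Msgn1 had 2 Tcf/Lef matches and 1 Cdx match. None of these overlapped another, and all lay inside the open regions. Tcf and Lef factors carry the Wnt signal to DNA, and Cdx proteins are caudal homeodomain factors. Of 32536 promoters of that length, 13.9% held the Tcf/Lef letters, 1.36% held them at least 2 times, and 10.8% held the Cdx letters. Tbx6 had no match to either. None of the 3 promoters held the T-box letters GGTGTGA (3.33% of promoters), the E-box letters CATCTG (14.4%) or the Smad letters GTCTAGAC (0.169%). A match is a description of the letters only.

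Summed over their regions, the 3 genes followed different courses. By the nearest-gene rule T was most accessible on day 7 and Tbx6 on day 3, while the Msgn1 groups overlapped. The T sum leaves out the region at the T start, which was highest on day 3. With all 29 regions within 50 kb of T, the log2 change was -0.69 for day 6 against day 3 and 0.02 for day 7 against day 6. The T sum was 14.2 and 15.6 CPM in the day 2 libraries, 18.5 and 17.3 CPM on day 3, 32.2 and 26.4 CPM on day 6, 25.6 and 29.1 CPM on day 7 with Gdf11, and 37.4 and 41.4 CPM on day 7. From low to high the groups were ordered day 2, day 3, day 7 with Gdf11, day 6 and day 7, and only the values of day 7 with Gdf11 and day 6 overlapped.

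The sums were tested in a fit of 18649 genes (edgeR quasi-likelihood, Benjamini-Hochberg adjusted over all genes), in which 61.4% differed among the groups. T differed among them (adjusted p 6.04e-09). It averaged 29.3 ± 4.1 CPM on day 6 and 17.9 ± 0.847 CPM on day 3 (SD, n = 2 libraries each), a log2 change of 0.72 ± 0.16 (SE, edgeR adjusted p 0.00104), in a comparison that called 20.3% of genes. On day 7, T averaged 27.3 ± 2.47 CPM with Gdf11 and 39.4 ± 2.8 CPM without it (SD, n = 2 libraries each), a log2 change of -0.53 ± 0.15 (SE, edgeR adjusted p 0.0157), where 13.6% of genes were called. In these bulk libraries, fewer cells of a type and less accessibility per cell cannot be told apart. No other comparison of T was called, among them day 7 against day 6, with 4.35% of genes called, and day 7 with Gdf11 against day 6, with 1.93%. The log2 change was 0.28 ± 0.17 for day 3 against day 2, 0.41 ± 0.15 for day 7 against day 6, and -0.12 ± 0.15 for day 7 with Gdf11 against day 6 (SE). Day 7 against day 6 was called with the 4 libraries of that comparison alone (0.37, edgeR adjusted p 0.0475). The calls of day 6 against day 3 and of Gdf11 against day 7 depended on the libraries and regions used. The first was lost without day 6 replicate 1 (log2 change 0.57) and with a window of 10 kb (0.44), and it turned round with all regions within 50 kb (-0.69, edgeR adjusted p 6.78e-06). The second was lost without day 7 replicate 2 (-0.49) or without replicate 1 of day 7 with Gdf11 (-0.46), and with all regions within 50 kb (-0.2). Scaling by library size alone adds 0.16 to each log2 change of Gdf11-treated against untreated day 7 cells, and T then stood at -0.37, short of the threshold.

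The single Tbx6 region gave 0.627 and 0.523 CPM on day 2, 2.04 and 2.45 CPM on day 3, 0.879 and 0.821 CPM on day 6, 0.422 and 0.323 CPM on day 7 with Gdf11, and 0.36 and 0 CPM on day 7. The day 3 libraries stood above all others, and the 0 in day 7 replicate 2 allows up to 0.442 CPM (3 counts). Only the day 3 libraries had a peak there, and the region passed the filter on low counts through them. Its selection thus favours a high day 3 value, which the p-values below do not take into account. As a gene sum Tbx6 differed among the groups (edgeR adjusted p 0.00342), and it was 3.76-fold higher on day 3 than on day 2 (log2 change 1.91 ± 0.7 SE, edgeR adjusted p 0.0434), in a comparison that called 22.8% of genes. The same counts in the table of regions gave an adjusted p of 0.104, and the gene-level call was lost without any 1 of the 4 libraries (log2 change 1.75 to 2.05). The value for day 6 against day 3 was -1.36 ± 0.64 (SE, edgeR adjusted p 0.13), and no other comparison of Tbx6 was called.

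The Msgn1 sum was 15.8 and 12 CPM on day 2, 13.5 and 15.3 CPM on day 3, 18.9 and 16.1 CPM on day 6, 14.2 and 17.2 CPM on day 7 with Gdf11, and 18.6 and 15.8 CPM on day 7. In the order day 2, day 3, day 7 with Gdf11, day 7 and day 6, every neighbouring pair of groups overlapped. No comparison of the sum was called (edgeR adjusted p 0.346 among the groups), although single regions of Msgn1 moved in opposite directions, as described below by region. Added together, the 3 genes gave 30.6 and 28.1 CPM on day 2, 34.1 and 35.1 CPM on day 3, 51.9 and 43.4 CPM on day 6, 40.2 and 46.6 CPM on day 7 with Gdf11, and 56.4 and 57.2 CPM on day 7. That total is mostly T and Msgn1, and it was not tested.

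**Figure D1:**
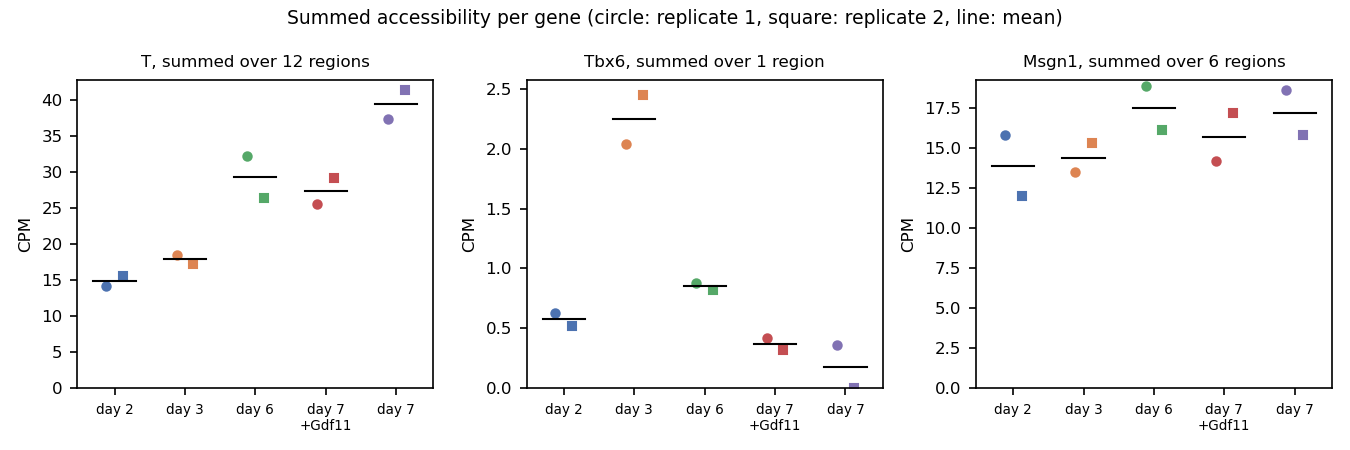
Accessibility summed over the regions of T, Tbx6 and Msgn1 (CPM, vertical axes from 0) in each library of the 5 groups, with circles for replicate 1, squares for replicate 2 and lines for the mean of 2 libraries. T was highest on day 7 (37.4 and 41.4 CPM), Tbx6 on day 3 (2.04 and 2.45 CPM), and the Msgn1 groups overlapped.

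The region counts give the course at finer scale. For day 3 against day 2, 3 of the 16 tested member regions rose and 0 fell (13.2% of all tested regions were called, 8.82% higher and 4.35% lower), and the median log2 change was 0.94 over the 16 and 0.07 over all tested regions. For day 6 against day 3, 4 rose and 1 fell (15.2% of regions called, 9.19% higher and 6.05% lower), with medians of 0.29 and 0.02. For day 7 against day 6 none was called by edgeR (1.18% of regions called, 0.974% higher and 0.207% lower), with 2 at an unadjusted p under 0.05, 0 calls by DESeq2, and medians of 0.04 and -0.02. With Gdf11, 1 region fell against day 7 (3.73% called, 1.09% higher and 2.65% lower), and none was called against day 6 (2.4% called, 1.06% higher and 1.34% lower), where 3 had an unadjusted p under 0.05 and DESeq2 called 0. Some comparisons share libraries: day 3 enters the first and second, and day 7 and day 6 enter later ones, so a high day 3 value gives both a rise and a following fall. Member counts without single libraries, given next, stand without the share of all regions called in those fits. The count of 3 became 1 without day 2 replicate 1 or without day 3 replicate 1, and the count of 5 became 2 without day 3 replicate 2 and 3 without any other 1 of its 4 libraries. The 1 call under Gdf11 became 2 without day 7 replicate 2.

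**Figure D2:**
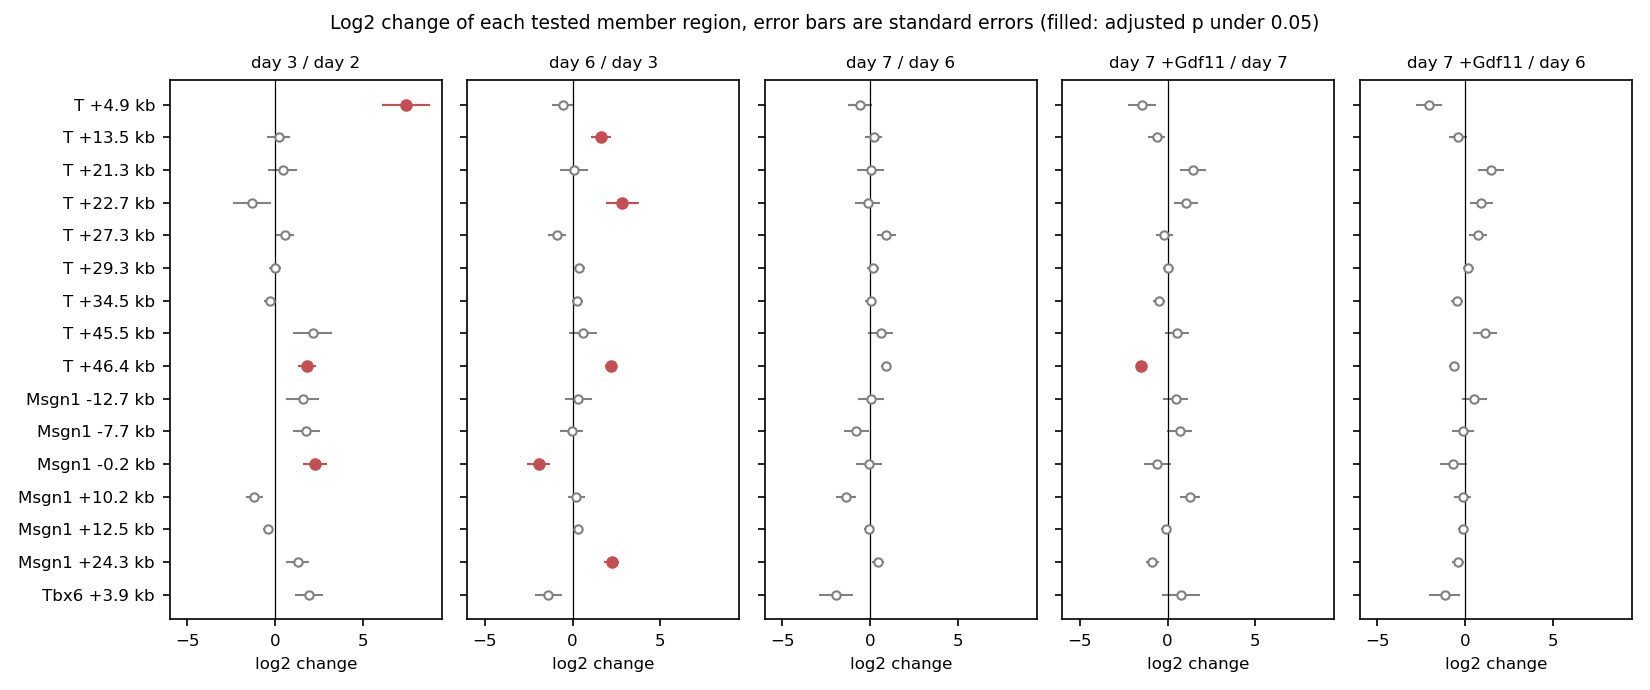
Log2 change (horizontal axes) of each of the 16 tested member regions in the 5 comparisons, with standard errors, ordered by gene and by distance from the gene start; filled points have an adjusted p under 0.05. The fitted value of 7.46 at T +4.9 kb is against libraries with 0 counts and depends on the prior count.

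Within the span of T, 1 region was open on day 3 and gave no count on day 2. It lies at chr17:8439203-8439447, with its centre 4.9 kb downstream of the start and inside the gene (chr17:8434423-8442496, plus strand, gene ID 20997). The table of genes gives spans without exons, so exon or intron is not stated. It had 0 and 0 CPM on day 2, 1.7 and 3.03 CPM on day 3, 2.0 and 1.09 CPM on day 6, 0.422 and 0.323 CPM on day 7 with Gdf11, and 1.08 and 1.03 CPM on day 7. All later libraries had counts there, while the 0 counts of the day 2 libraries allow up to 0.314 and 0.392 CPM. Replicate 2 of day 7 with Gdf11, at 0.323 CPM, lay below 0.392 CPM, so it was not clearly separated from day 2. No day 2 library had a peak there, and the region was defined by later peaks, which favours a day 3 value above day 2. Day 3 held 41 counts against 0 on day 2, and was at least 13.6-fold higher (floor of 3 counts over the day 2 group, edgeR adjusted p 5.83e-05). The authors' peak lists had a peak there in 2 day 3 libraries, in 1 day 6 library and in no other. This was called without each of the 4 libraries in turn, and no later comparison of the region was called.

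Of the 16 tested member regions, the one with the largest F statistic among the groups lay far downstream of T, at chr17:8480605-8481039, with its centre 46.4 kb from the start and 38109 bp beyond the end of the span. Its values were 0.418 and 0.784 CPM on day 2, 2.55 and 1.44 CPM on day 3, 9.91 and 9.17 CPM on day 6, 4.64 and 7.97 CPM on day 7 with Gdf11, and 16.0 and 20.0 CPM on day 7. No 2 groups overlapped, and the libraries with Gdf11 stood below both day 6 and day 7. In the edgeR test, day 6 was 4.54-fold higher than day 3 (log2 change 2.18 ± 0.33 SE, adjusted p 1.02e-06). Day 7 with Gdf11 was 2.87-fold lower than day 7 (-1.52 ± 0.27, edgeR adjusted p 0.000145). Both calls held without each of the libraries in turn. Day 3 against day 2 gave 1.82 ± 0.52 (edgeR adjusted p 0.0115), a call lost without day 2 replicate 1 (1.4) or without day 3 replicate 1 (1.26). Day 7 against day 6 gave 0.90 ± 0.26 and was not called (edgeR adjusted p 0.0744). Peaks were called there in 0 day 2 libraries, 1 day 3 library and both libraries of each later group. The region held 4.04% of the T sum on day 2, 11.1% on day 3, 32.5% on day 6, 23.1% on day 7 with Gdf11 and 45.7% on day 7.

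Without that region the other 11 regions of T summed to 14.3 ± 0.689 CPM on day 2, 15.9 ± 0.0653 CPM on day 3, 19.8 ± 3.57 CPM on day 6, 21.0 ± 0.117 CPM on day 7 with Gdf11 and 21.4 ± 0.0395 CPM on day 7 (SD, n = 2 libraries each). This remainder was chosen after its values were seen and was not tested. In it, the Gdf11 libraries had 20.9 and 21.1 CPM and the day 7 libraries 21.4 and 21.4 CPM, so that the separation of these groups in the full sum sat mostly in the 46.4 kb region.

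A pair of weaker regions of T rose on day 6 against day 3. The first, at chr17:8447834-8448110 (13.5 kb downstream of the start, outside the span), had 0.627 and 0.915 CPM on day 2, 0.679 and 1.15 CPM on day 3, 3.68 and 1.5 CPM on day 6, 2.19 and 1.83 CPM on day 7 with Gdf11, and 2.25 and 4.12 CPM on day 7. All later libraries lay above those of day 2 and day 3, with a log2 change of 1.61 ± 0.56 (SE, edgeR adjusted p 0.04) that was lost without day 6 replicate 1 (0.78), day 3 replicate 1 (1.22) or day 3 replicate 2 (1.96). The second, at chr17:8457040-8457289 (22.7 kb downstream), had 0.418 and 0.392 CPM on day 2, 0.255 and 0 CPM on day 3, 0.719 and 1.78 CPM on day 6, 2.7 and 1.83 CPM on day 7 with Gdf11, and 0.9 and 1.33 CPM on day 7. It rested on 22 counts on day 6 and 3 counts on day 3 (log2 change 2.83 ± 0.94 SE, edgeR adjusted p 0.0315). That value was 6.45 without day 3 replicate 1, and the call was lost without day 3 replicate 2 (2.15) or day 6 replicate 2 (2.12). The Gdf11 libraries were its highest, and only they had peaks there, but Gdf11 against day 7 was not called (1.06 ± 0.67 SE, edgeR adjusted p 0.471).

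The remaining 5 tested regions of T were called in none of the 5 comparisons. Those centred 29.3 kb and 34.5 kb downstream had a peak in all 10 libraries, with means over all libraries of 4.42 and 5.09 CPM, and did not differ detectably among the groups (edgeR adjusted p 0.405 and 0.533). The region at 45.5 kb differed among the groups (adjusted p 0.00855, edgeR), with 2.19 and 1.61 CPM on day 7 with Gdf11, 1.44 and 1.18 CPM on day 7, and 0 and 0.261 CPM on day 2. The 2 others averaged 1.88 CPM (27.3 kb) and 0.965 CPM (21.3 kb). The 3 regions that were not tested had means of 0.325 to 0.5 CPM.

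**Figure D3:**
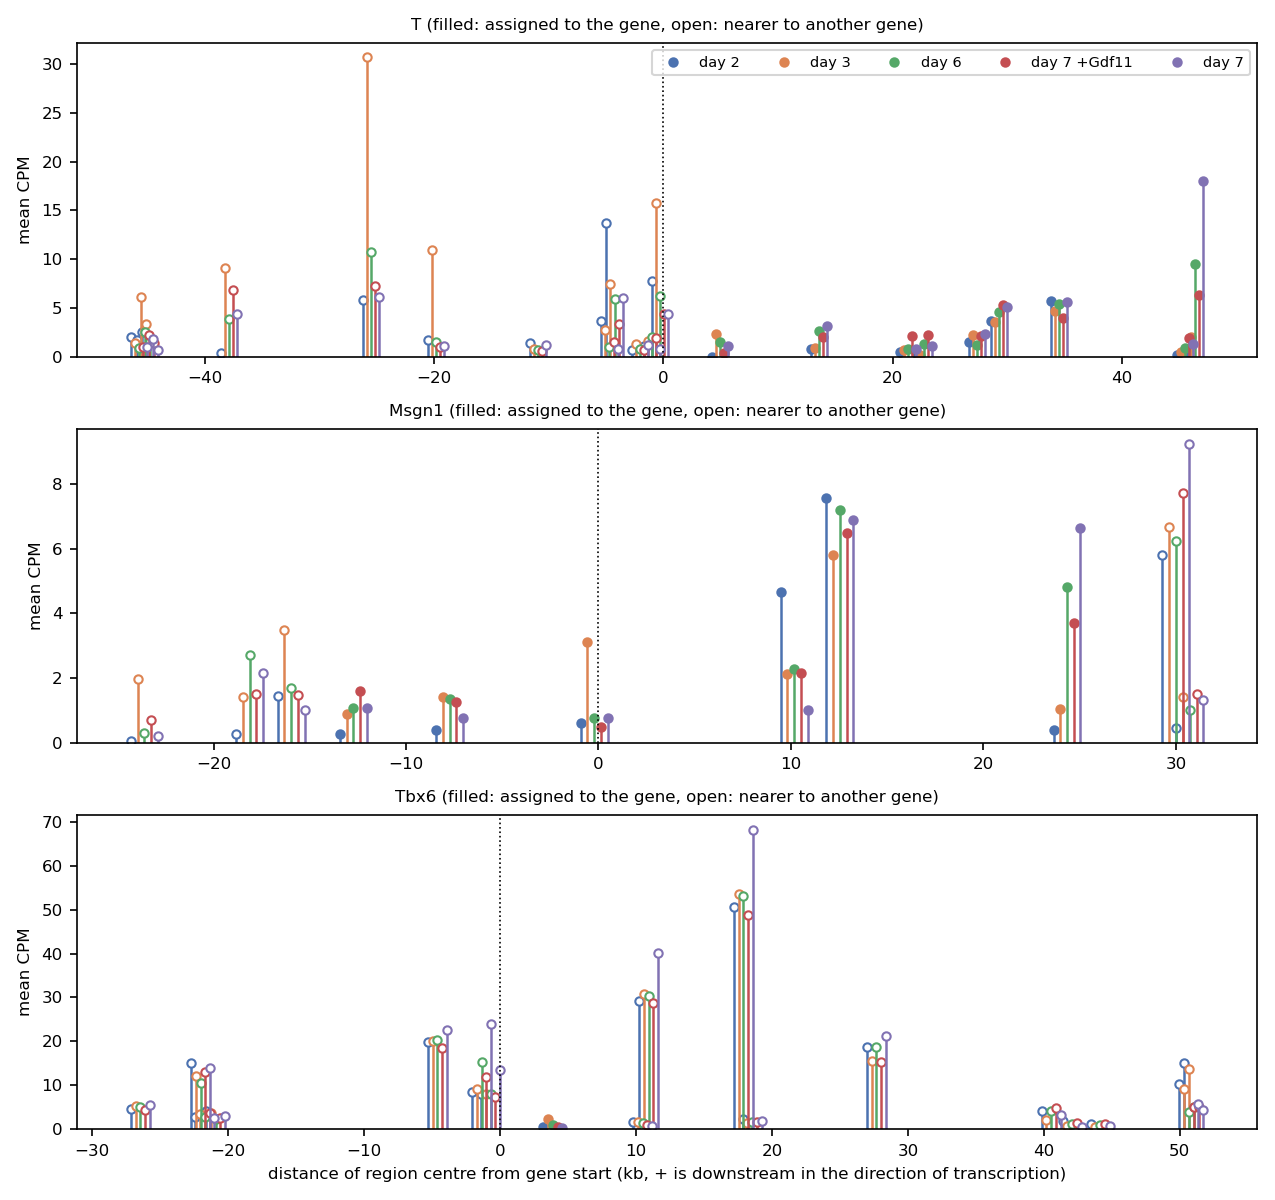
Mean accessibility (CPM, vertical axes) of the regions that passed the filter within 50 kb of T, Msgn1 and Tbx6, by distance of the region's centre from the gene start (kb, positive is downstream); groups are shifted sideways so that they do not hide each other. Filled points belong to the gene and open points to a nearer gene. At T the open points upstream reach their highest values on day 3 (30.7 CPM at 25.5 kb), and the filled point at 46.4 kb on day 7 (18.0 CPM).

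Several regions close to T that the nearest-gene rule gives to other genes were highest on day 3. The region at the T start, chr17:8433867-8434377, overlaps a predicted gene, LOC115486424 (chr17:8432660-8434528), and so is not counted for T, though it ends 46 bp before the T span. It had 6.69 and 8.76 CPM on day 2, 14.2 and 17.3 CPM on day 3, 5.51 and 6.84 CPM on day 6, 3.88 and 4.95 CPM on day 7 with Gdf11, and 4.77 and 3.98 CPM on day 7. Both day 3 libraries stood above all others. In the edgeR test, day 3 was 2.04-fold higher than day 2 (log2 change 1.03 ± 0.26 SE, adjusted p 0.00395), and day 6 was 2.56-fold lower than day 3 (-1.36 ± 0.26, adjusted p 0.000112, edgeR). The rise was lost without day 2 replicate 1 (0.83) or day 3 replicate 2 (0.87), while the fall was called without each library in turn.

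Farther upstream, 3 regions within the span of the neighbouring gene T2, named after their values were seen, were also highest on day 3. The one at chr17:8408553-8409308, 25.5 kb upstream of the T start, had 5.96 and 5.62 CPM on day 2, 28.7 and 32.6 CPM on day 3, 8.23 and 13.1 CPM on day 6, 9.03 and 5.49 CPM on day 7 with Gdf11, and 5.22 and 6.92 CPM on day 7. It was 5.26-fold higher on day 3 than on day 2 (edgeR adjusted p 5.32e-11), and 2.92-fold lower on day 6 than on day 3 (edgeR adjusted p 9.12e-07). The region 37.9 kb upstream was 25.3-fold higher on day 3 than on day 2, at 9.12 CPM against 0.34 CPM (edgeR adjusted p 1.58e-11). The region 19.8 kb upstream was 6.21-fold higher, at 10.9 CPM against 1.74 CPM on day 2 (edgeR adjusted p 4.89e-06). Over all 12 tested regions within 50 kb of T that belong to other genes, 5 were higher and 1 lower on day 3 than on day 2 (8.82% and 4.35% of all tested regions). On day 6 against day 3, 0 were higher and 5 lower (9.19% and 6.05% of all tested regions). None was called in the other 3 comparisons, which called few regions anywhere. The shares were 1.18% for day 7 against day 6, and 3.73% and 2.4% for Gdf11 against day 7 and against day 6. Whether the T sum was higher on day 6 than on day 3 therefore depended on the regions counted. Leaving predicted genes out of the gene table, which gives T the 5 regions of LOC115486424 including the one at its start, made the log2 change -0.03. Counting all 29 regions within 50 kb made it -0.69 (edgeR adjusted p 6.78e-06).

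At Msgn1 (chr12:11208382-11208948, minus strand, gene ID 56184) the region at the start was open mainly on day 3. It lies at chr12:11209023-11209331, with its centre 229 bp upstream of the start, and holds the promoter stretch printed above. Its values were 0.732 and 0.523 CPM on day 2, 3.23 and 3.03 CPM on day 3, 1.12 and 0.41 CPM on day 6, 0.76 and 0.215 CPM on day 7 with Gdf11, and 0.81 and 0.736 CPM on day 7. The day 3 libraries stood above all 8 others, and they alone had a peak there. The region was thus defined by day 3 peaks, and it passed the filter on low counts through that group. Its selection favours a high day 3 value, which the p-values of the rise and the fall do not take into account. Day 3 was 4.86-fold higher than day 2 (log2 change 2.28 ± 0.68 SE, edgeR adjusted p 0.0163), and day 6 was 3.8-fold lower than day 3 (-1.93 ± 0.64, edgeR adjusted p 0.0314). Each call was lost without any 1 of its 4 libraries, with log2 changes of 2.03 to 2.55 and of -2.88 to -1.48. DESeq2 gave 2.26 and -1.96, with adjusted p of 0.0678 and 0.0933.

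A downstream region of Msgn1 opened later. At chr12:11184414-11184793, with its centre 24.3 kb downstream of the start, it had 0.418 and 0.392 CPM on day 2, 0.934 and 1.15 CPM on day 3, 5.11 and 4.51 CPM on day 6, 2.87 and 4.52 CPM on day 7 with Gdf11, and 7.11 and 6.19 CPM on day 7. The day 7 libraries were highest, and all later libraries lay above day 2 and day 3. Day 6 was 4.68-fold higher than day 3 (log2 change 2.23 ± 0.44 SE, edgeR adjusted p 0.000141), a call that held without each library in turn. The authors' lists had a peak there in both libraries of day 6, day 7 with Gdf11 and day 7, and in none before. Gdf11 against day 7 gave -0.87 ± 0.36 and was not called (SE, edgeR adjusted p 0.19). This region held 27.5% of the Msgn1 sum on day 6 and 7.25% on day 3, while the region at the start held 4.37% on day 6 and 21.7% on day 3.

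The largest share of the Msgn1 sum came from a region that did not differ detectably. At chr12:11196230-11196583, 12.5 kb downstream, its values were 9.51 and 5.62 CPM on day 2, 5.69 and 5.92 CPM on day 3, 7.27 and 7.11 CPM on day 6, 6.33 and 6.67 CPM on day 7 with Gdf11, and 7.92 and 5.89 CPM on day 7. It had a peak in all 10 libraries and held between 40.2% and 54.4% of the sum (edgeR adjusted p 0.747 among the groups). The region 10.2 kb downstream differed among the groups (edgeR adjusted p 0.00486), with 4.08 and 5.23 CPM on day 2, 1.36 and 2.89 CPM on day 3, and 0.27 and 1.77 CPM on day 7. No single comparison of it was called. The 2 regions 7.74 kb and 12.7 kb upstream averaged 1.04 and 0.979 CPM and were not called. Of 5 tested regions within 50 kb of Msgn1 that belong to other genes, 2 were higher and 0 lower on day 3 than on day 2 (8.82% and 4.35% of all tested regions). On day 6 against day 3, 0 were higher and 1 lower (9.19% and 6.05%), and no other comparison called any.

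Tbx6 (chr7:126781483-126785548, plus strand, gene ID 21389) lies close between Ypel3 and Ppp4c, which take 18 of the 19 regions within 50 kb together with other neighbours. Its own region, chr7:126785298-126785446, is 149 bp wide, sits inside the span near the 3′ end, and had peaks in both day 3 libraries and in no other. The counts were 6 and 4 on day 2, 24 and 17 on day 3, 11 and 6 on day 6, 5 and 3 on day 7 with Gdf11, and 4 and 0 on day 7. The region nearest the Tbx6 start, chr7:126780658-126780913, is given to Ypel3 and ends 570 bp before the Tbx6 span. It had 7.51 and 7.21 CPM on day 7 with Gdf11 and 14.2 and 12.5 CPM on day 7, with values of 6.64 to 9.51 CPM in the earlier libraries. There, day 7 with Gdf11 was 1.82-fold lower than day 7 (log2 change -0.86 ± 0.25 SE, edgeR adjusted p 0.0306). That call was lost without any 1 of the 4 libraries (-0.97 to -0.77), and scaling by library size alone gave -0.71. The next region upstream, 1125 bp before the span, had 11.8 CPM with Gdf11 and 24 CPM on day 7 (-1.02 ± 0.21 SE, edgeR adjusted p 0.00107). Of 17 tested neighbours of Tbx6, 0 were higher and 3 lower with Gdf11 against day 7 (1.09% and 2.65% of all tested regions). On day 6 against day 3, 1 was higher and 2 lower (9.19% and 6.05%), and no other comparison called any.

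**Figure D4:**
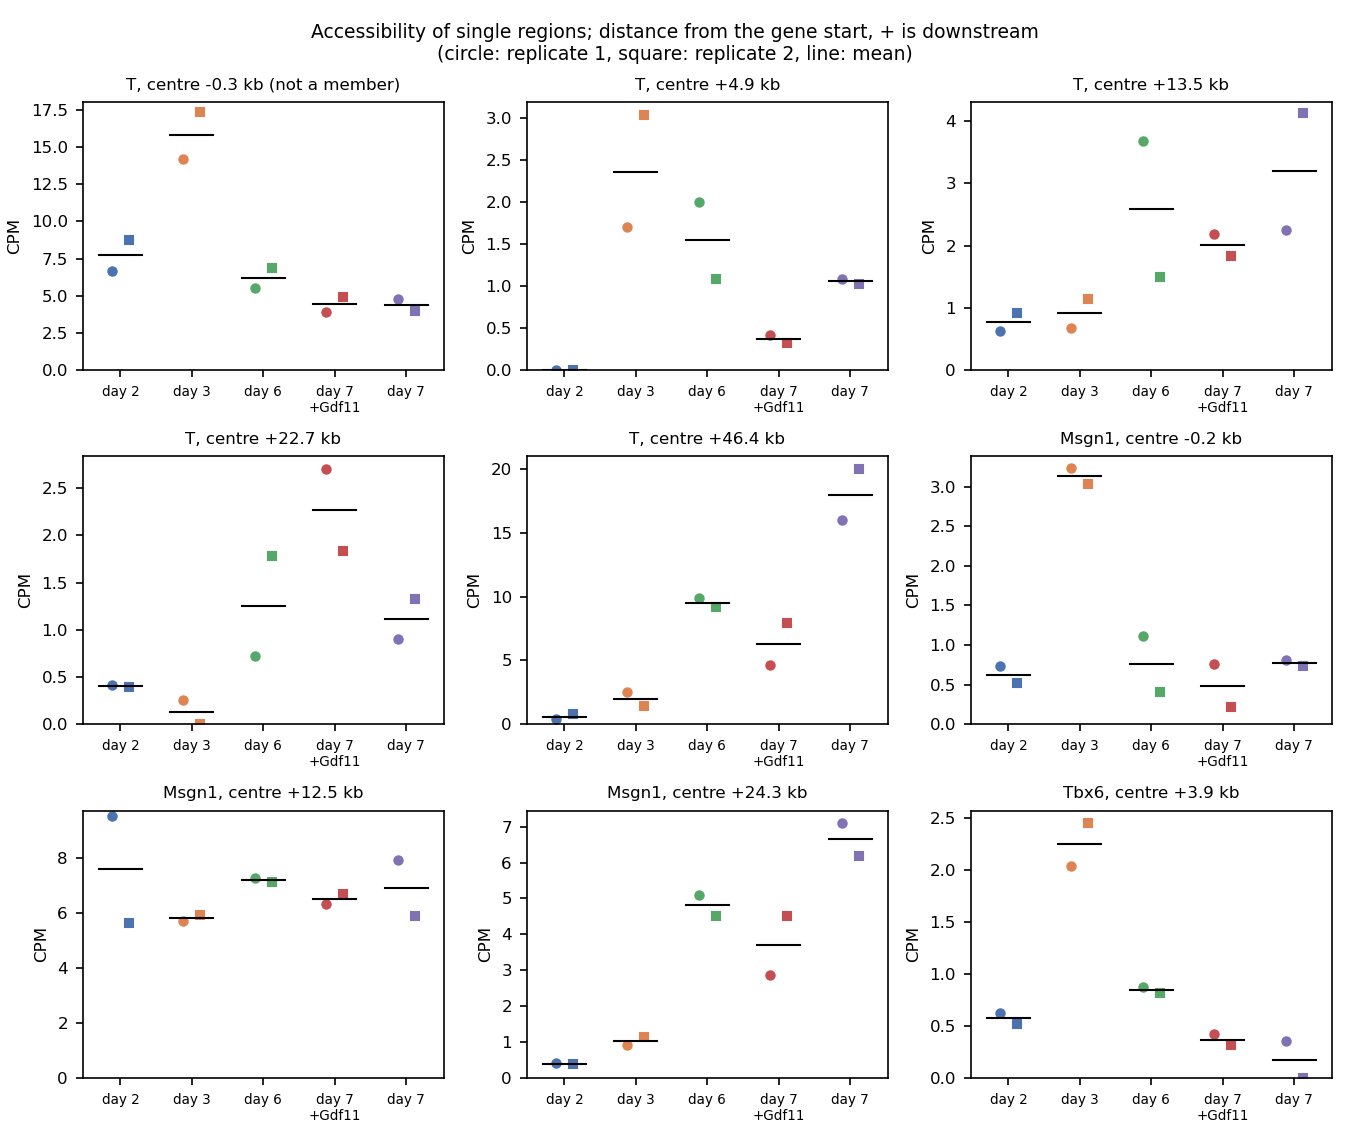
Accessibility (CPM, vertical axes from 0) of the 8 member regions described in full and of the region at the T start, in each library of the 5 groups, with circles for replicate 1, squares for replicate 2 and lines for the mean. The regions at the starts of T and Msgn1, and that of Tbx6, were highest on day 3, and the regions at T +46.4 kb and Msgn1 +24.3 kb were highest on day 7.

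Peaks in the authors' lists, called per library, overlapped 6 and 5 of the 19 member regions on day 2, 9 and 8 on day 3, 10 and 5 on day 6, 11 and 12 on day 7 with Gdf11, and 9 and 6 on day 7. Of all 246799 regions, they overlapped 111763 and 91110 on day 2, 104373 and 82541 on day 3, and 98801 and 74118 on day 6. On day 7 they overlapped 84407 and 101257 with Gdf11, and 110486 and 81080 without it. The member counts were not tested against these. The greatest fold enrichment, the authors' own value, was 13.2 at T +46.4 kb, 9.95 at Msgn1 +24.3 kb, 5.72 at the Msgn1 start and 4.42 at Tbx6.

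Most genes on a list of Wnt and Fgf signals and caudal factors were more accessible on day 3 than on day 2. Of 18 Wnt, Fgf and caudal genes, 11 were higher and 2 lower on day 3 than on day 2 (12.3% and 10.5% of all genes), with a median log2 change of 0.65, beside 0 over all genes. Sp5, a direct Wnt target that encodes a zinc finger factor, had 132 ± 5.35 CPM on day 3 and 38.6 ± 5.1 CPM on day 2 (SD, n = 2 libraries each; edgeR adjusted p 1.52e-15). Cdx1 was 3.42-fold, Cdx2 1.91-fold and Wnt5b 1.82-fold higher on day 3. Tcf7l1, a repressor among the Tcf factors, fell to 139 CPM on day 3, against 184 CPM on day 2 (edgeR adjusted p 0.000452). Fgf4, an Fgf ligand, was the other that fell. For day 6 against day 3, which shares the day 3 libraries, 1 of the 18 rose and 10 fell (9.54% and 10.8% of all genes), with a median of -0.34 beside -0.02 over all genes. Wnt8a was 2.27-fold and Fgf8 1.79-fold lower on day 6, while Tcf7l1 was the gene that rose (1.61-fold). On day 7 against day 6, Wnt3a rose 1.54-fold and Cdx1 fell 1.41-fold (3.65% of all genes were higher and 0.702% lower). With Gdf11, 0 rose and 4 fell against day 7 (2.12% and 11.4% of all genes), with a median of -0.16 beside -0.1. They were Cdx2 (1.55-fold), Sp8, Sp5 and Cdx4. Against day 6, 1 rose (Wnt3a) and 4 fell (0.638% and 1.29% of all genes).

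Presomitic mesoderm genes, which act with or after Tbx6 and Msgn1, were called in both directions on day 3, and 10 of 18 fell with Gdf11 against day 7. Of the 18, 3 were higher and 4 lower on day 3 than on day 2 (12.3% and 10.5% of all genes). Cyp26a1, which degrades retinoic acid in the tail bud, was 2.12-fold higher, and Lfng, a Notch modifier of the segmentation clock, was 1.57-fold lower. On day 6 against day 3, 1 rose (Pax3) and 2 fell (Ripply2 and Hes7), beside 9.54% and 10.8% of all genes. On day 7 against day 6, 5 rose and 0 fell (3.65% and 0.702% of all genes), among them Dll1, a Notch ligand and Tbx6 target (1.47-fold), Pax3, Notch1 and Meox1. With Gdf11, 0 rose and 10 fell against day 7 (2.12% and 11.4% of all genes), with a median log2 change of -0.4 beside -0.1 over all genes. Meox1, a homeobox gene of somites, had 29.5 ± 4.12 CPM with Gdf11 and 68.4 ± 2.6 CPM without it on day 7 (SD, n = 2 libraries each; edgeR adjusted p 2.62e-07). Dll1 was 1.56-fold, Pax3 1.55-fold and Notch1 1.5-fold lower. Mesp2 (0.97), Mesp1 (0.26), Ripply2 (0.24) and Dll3 (0.2) had positive log2 changes that were not called. Against day 6, 0 rose and 3 fell (0.638% and 1.29% of all genes), namely Cyp26a1, Meox1 and Ripply1. Some genes of this list, among them Pax3 and Notch1, are also used by neural cells, so their changes need not be presomitic.

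Of 8 neural genes, whose fate Tbx6 opposes, 4 rose on day 6 against day 3 (9.54% of all genes), 4 rose on day 7 against day 6 (3.65%), and none fell in either. With Gdf11, 7 of the 8 fell against day 7 (11.4% of all genes), with a median log2 change of -0.66 beside -0.1 over all genes. On day 3 against day 2, 1 rose (Neurog2) and 2 fell (Sox1 and Pax6), beside 12.3% and 10.5% of all genes. With Gdf11 against day 6, 0 rose and 3 fell (0.638% and 1.29% of all genes). Neurog2, a proneural factor, had 103 ± 9.55 CPM with Gdf11 and 201 ± 7.13 CPM without it on day 7 (SD, n = 2 libraries each; edgeR adjusted p 4.79e-09). Sox2, the neural partner of T in neuromesodermal progenitors, was 1.58-fold lower with Gdf11. Scaling by library size alone adds 0.16 to each log2 change of Gdf11 against day 7 and shifts the median of all genes to 0.06. Every called list gene fell by more than 0.16 in that comparison, so no direction could turn. Whether these genes would still be called under that scaling was not tested. The neural progenitor marker sum was 425 to 483 CPM on day 7 with Gdf11 and 705 to 759 CPM on day 7. The paraxial mesoderm sum, which includes Tbx6 and Msgn1, was 118 to 120 CPM with Gdf11 and 157 to 178 CPM without it. The part of these markers in the lower T sum with Gdf11 was not tested.

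The authors' deposited table of motifs for regions marked up between day 2 and day 3 had the Brachyury motif in 9.14% of target and 5.43% of background sequences (natural log of p -104.1, rank 61 of 414 motifs). For regions marked down between day 3 and day 6, the authors' deposited table gave 8.39% and 4.57% (natural log of p -85.92, rank 62). In regions marked up between day 3 and day 6, the authors' deposited table gave 5.63% of target and 5.56% of background sequences (rank 277). For those marked down between day 2 and day 3, the authors' deposited table gave 6.27% and 4.98% (natural log of p -9.972, rank 136). The Tbx6 motif, in the authors' deposited table, was in 24.16% of target and 20.88% of background sequences for the first set (rank 131), and in 23.5% and 20.38% for the second (rank 113). With Gdf11, the authors' deposited table gave the Brachyury motif in 8.22% of target and 5.69% of background sequences for regions marked up (rank 143), and in 7.27% and 6.76% for those marked down (rank 213). T-box factors share much of their motif, and how the authors chose the target regions is not given in the sources used here.

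The genes whose summed accessibility over the 10 libraries ran most like that of T were Mpped2, Boc, Atoh8, Dpyd and Ednrb, among 9324 genes of above-median level, with root mean square differences of 0.0819 to 0.0979 in centred log2 CPM, beside a spread of 0.502 for T itself. For Tbx6 they were Dmtn, Vmn2r1, Rasgrp3, Evx1 and Pgr, at 0.329 to 0.444 beside a spread of 0.724. For Msgn1 they were Coa6, Cmc1, E2f7, Gtpbp4 and Elk1, at 0.0768 to 0.0909 beside 0.186. The Msgn1 sum did not differ detectably among the groups (edgeR adjusted p 0.346), so likeness to it shows no shared course. The T sum used here leaves out the region at the T start, and 45.7% of it on day 7 came from the 46.4 kb region. Evx1, a homeobox gene of the primitive streak, had 52.1 CPM on day 3 and 27.1 CPM on day 2.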

How the data were processed

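ATAC-seq was measured in 10 libraries of 5 groups. The deposited tables hold raw counts per region for each library, made by the authors; the counter is not given in the sources used here. Per the submitters' processing notes, HISAT2 2.1.0, MACS2 2.1.1.20160309, HOMER 4.10, SAMtools and bedtools were used on build mm10. The authors' peak lists give each peak a fold ratio and a −log10 q. The authors' deposited motif tables give percents of sequences and a score, the natural log of p.

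Count tables carry no coordinates. Merging the 10 peak lists (bedtools 2.31.1), with chromosomes in character order, gave 246799 regions, as many as were counted. In that order 0 regions holding a library's own peak had a count of 0 there, against 1095 to 9931 per library in numeric order, so positions rest on this match. Regions went to the nearest protein-coding span within 50 kb (RefSeq, GRCm38.p6).

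Counts were fitted in edgeR 4.0.16 (R 4.3.3) with filterByExpr, TMM factors, all 10 libraries by group, quasi-likelihood F tests (two-sided) and Benjamini-Hochberg adjustment over 173175 regions or 18649 genes, at a threshold of 0.05. Gene values were sums over regions. The code was tested on simulated data. CPM are counts scaled by library size and TMM factor. Standard errors came from the F statistic. Floors of 3 counts cover counting error only. Alternatives were DESeq2 1.42.0, library size alone, no filter, chromosome M left out, a replicate block, 4 libraries only, each library left out, a window of 10 kb, stricter peaks, and 2 choices made after seeing the data (predicted LOC genes left out, and all regions within 50 kb). Regions were described in full if they overlapped or lay within 1 kb of a member gene, were its highest, or were among its 3 smallest p past the threshold. Up to 4 genes per list and comparison were named by p. Members and lists were chosen with earlier results of these data known.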

Additional observations from a re-analysis of the deposited data

How the results depend on the processing

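Summed T on day 3 against day 2 was called with a 10 kb window (log2 change 2.04) and with all regions within 50 kb (0.91). T on day 6 against day 3 was 0.44 with 10 kb (not called), -0.03 without predicted genes and -0.69 with all regions within 50 kb, both opposite in sign to 0.72; without single libraries it was 0.57 to 0.84. T on day 7 against day 6 was called with the replicate block (0.41, edgeR adjusted p 0.049) and with 4 libraries only (0.37), and was -0.06 with 10 kb. T with Gdf11 against day 7 was not called with library size alone (-0.37), 10 kb (-0.78) or all regions within 50 kb (-0.2), and was -0.66 to -0.46 without single libraries. T with Gdf11 against day 6 was -0.23 to 0.05 without single libraries and -0.84 with 10 kb, and was called in none of these. Tbx6 on day 3 against day 2 was not called by DESeq2 (1.9), without the filter (1.89) or without single libraries (1.75 to 2.05), and was -0.04 with all regions within 50 kb, where day 7 against day 6 gave 0.32 and Gdf11 against day 7 gave -0.41. Msgn1 on day 3 against day 2 was -0.01 by DESeq2, -0.19 to 0.24 without single libraries, and 0.41 (called) with all regions within 50 kb. Msgn1 on day 6 against day 3 was -0.55 with 10 kb. Msgn1 on day 7 against day 6 was 0 without the filter, -0.14 to 0.11 without single libraries, 0.06 with all regions within 50 kb and -0.88 with 10 kb. Msgn1 with Gdf11 against day 7 was 0.01 with library size alone and 0.66 with 10 kb. The cause of these changes was not tested, beyond the regions that each window adds or removes.

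Of the member regions, 1 to 3 were called on day 3 against day 2 and 2 to 3 on day 6 against day 3 without single libraries; DESeq2 called 2 on day 6 against day 3. On day 7 against day 6, 1 was called without the filter, with the replicate block and with 4 libraries only. With Gdf11 against day 7, 1 to 2 were called without single libraries. The share of all regions called under these settings is not given here, so these counts cannot be read as particular to the members. Without single libraries, 213457 to 219690 regions were tested, against 173175 in the main fit. Regions with a peak in both libraries numbered 4 on day 3 and 5 on day 7 with Gdf11 at a −log10 q of at least 5, and 6 on day 7 with Gdf11 where a peak had to cover at least 50% of the region. Of the called regions' values under alternatives, 91 stayed called with the same direction and 28 lost the call with the same direction. Libraries with the same replicate number deviated together only weakly (10 correlations of 0.0101 to 0.17), but all 10 correlations were positive. In each of the 5 groups, replicate 1 had the higher total count and the lower share of counts on chromosome M. Whether the numbers mark pairs or a batch is not settled by these values. The replicate block changed no other call. Where a library was left out, the lone library of its group was assumed to vary like the other groups. Low counts per region limit what 2 libraries can show.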

Other observations

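Among 13 tested relatives of T and Tbx6 in the T-box family, 0 rose and 3 fell on day 3 against day 2, where 12.3% of all genes rose and 10.5% fell: Tbx21, known from T helper cells, had 7.12 CPM on day 3 and 13.4 CPM on day 2 (edgeR adjusted p 0.00902), Tbx4, a hindlimb factor, was 1.51-fold lower, and Tbx15 was 1.26-fold lower. On day 6 against day 3, Tbx22 rose 2.01-fold, and Tbx3 and Mga fell (9.54% and 10.8% of all genes). On day 7 against day 6, Eomes, a T-box factor of the early streak and endoderm, had 35.8 CPM on day 7 and 47.7 CPM on day 6 (edgeR adjusted p 0.0368), and Tbr1 was 1.42-fold lower (0.702% of all genes fell). With Gdf11, 1 of the 13 fell against day 7, where 11.4% of all genes fell, and 1 against day 6 (1.29% of all genes), Tbx22 in both.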
